A study of Homo sapiens with 2 samples.

Results

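Intergenic peaks downstream of mRNA genes were examined in a RIP-seq experiment on MKN-28, a long-used line of gastric cancer cells. In RIP-seq, RNA that comes down with an antibody is sequenced and set against RNA from a control precipitation. One library was made with an antibody against PTBP1 and one with normal rabbit IgG, both from MKN-28 cells for which no treatment is listed, so there was 1 library per group and no replicate. MKN-28 is carried in the register of misidentified lines as a derivative of another gastric cancer line. The deposited peaks joined both libraries into 1 value per peak, and no value per library is given here. Members were all peaks of the mRNA list that the authors classed as intergenic and that lay on the downstream side of the transcript start, counted once per position with the transcript whose start was nearest. There were 671 such peaks among 8479 mRNA peaks (7.91%, 95% Wilson interval 7.36 to 8.51%), and they were named for 494 of 5186 genes (9.53%). All intervals below are 95% Wilson intervals and cover counting error only.

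PTBP1 belongs to the hnRNP family, binds stretches of pyrimidines in RNA of the nucleus and the cytoplasm and acts on splicing, 3′ end formation, stability and translation. Transcription by RNA polymerase II runs on past the annotated end of a gene before it stops, and many genes have longer 3′ ends than the annotated ones. A peak past the end of a gene can thus belong to RNA of that gene, to a separate transcript, or to a neighbour that runs towards it from the other side. The peaks carried no strand, so these cases cannot be told apart from the position alone. No sequence is shown for the peaks, since no genome of the hg19 build was used here.

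The first question was how far past the gene the peaks lay. The distance from the listed transcript end to the near edge of the peak had a median of 9901 bases (quartiles 4444.5 and 26476.5). Of the 671 peaks, 195 (29.1%, 25.8 to 32.6%) lay within 5 kb of the end and 456 (68.0%, 64.3 to 71.4%) within 20 kb, and 37 (5.51%, 4.03 to 7.51%) lay more than 100 kb away. Per kb of distance there were 37 peaks in the first kb, 36 from 1 to 5 kb, 17.4 from 5 to 20 kb, 4.4 from 20 to 50 kb and 0.92 from 50 to 100 kb. The peaks were thus densest right behind the genes. A fall with distance is in part set by the naming, since a peak far past a gene is more often nearer to another start.

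The naming shaped the set in other ways. For each of the 671 peaks the named start was the nearest of all starts listed in the mRNA and lncRNA tables. The transcripts in front of the peaks had a median genomic length of 14515 bases, against 35683 bases over all mRNA peaks and 46494 bases for the 621 intergenic peaks upstream of genes. Beyond the end of a long gene, another start is often nearer. The smallest distance from a member ahead to a listed mRNA start was 20044 bases, since peaks up to 20 kb before a start form a class of their own, called upstream. The member closest behind its own start had its centre 2066 bases from it. None of the 671 peaks overlapped the listed mRNA transcript of another gene, which follows from the intergenic class. Of the upstream class, 479 of 1389 peaks (34.5%) did so.

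**Figure D1:**
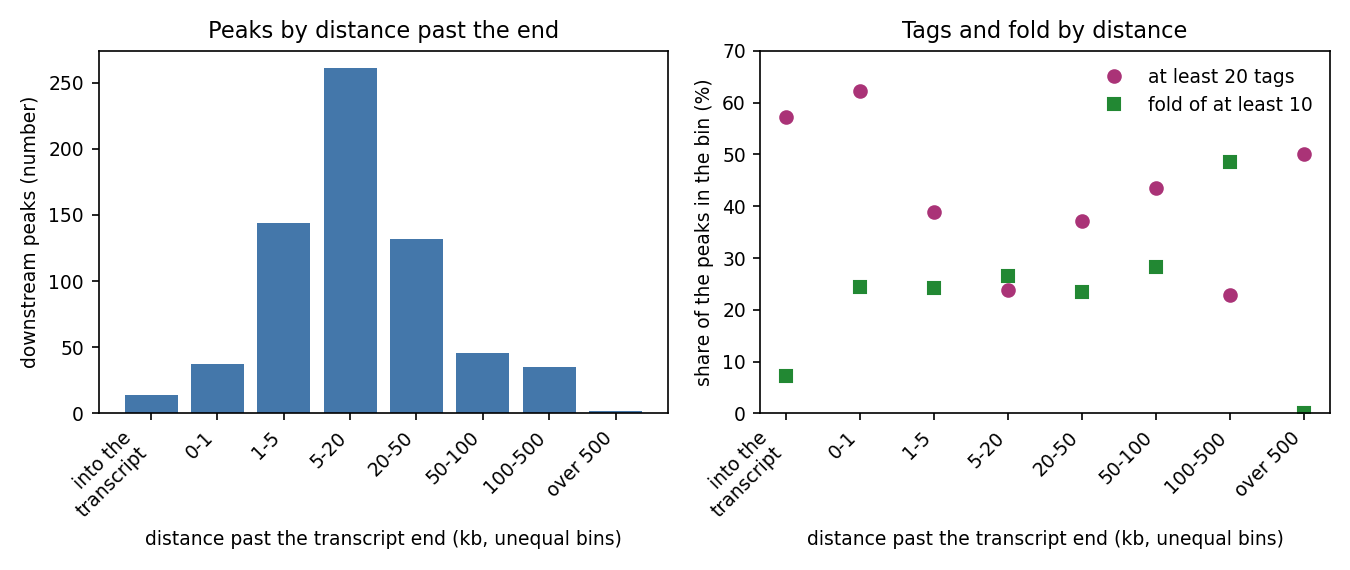
Left, number of downstream peaks by distance from the transcript end to the near edge of the peak, in kb and in bins of unequal width. Right, share of the peaks in each bin with at least 20 tags (circles) and with a fold enrichment of at least 10 (squares). The 5 to 20 kb bin holds the most peaks (261), the share with at least 20 tags is 62.2% in the first kb and 23.8% from 5 to 20 kb, and the last bin holds only 2 peaks.

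Peaks nearest to the end held more tags. A tag is a sequenced read placed inside the peak, and tags are the only measure of depth in these tables. The median was 22 tags for the 37 peaks within the first kb, 15 for the 144 from 1 to 5 kb and 10 for the 261 from 5 to 20 kb, and it was 14 for the 132 peaks from 20 to 50 kb. The median fold in these 4 bins was 6.86, 7.31, 7.75 and 7.38. Their median peak length was 814, 634, 529 and 546 bases. Whether the tag counts follow the peak length was not tested. Beyond 20 kb the downstream peaks could be set beside the intergenic peaks upstream of genes, which began at 20031 bases. The upstream peaks had a median of 10 tags both from 20 to 50 kb (351 peaks) and from 50 to 100 kb (181 peaks). The downstream peaks had medians of 14 and 14.5 tags there, and from 100 to 500 kb the order turned, with 8 tags in 35 downstream peaks and 10 tags in 83 upstream ones. The distances of the 2 sets run from different ends of the gene, and no test was run between them.

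At the gene end itself, 14 peaks began inside the transcript and had their centre past it. They reached between 4 and 969 bases into the gene. The deepest was at ORMDL2, a regulator of sphingolipid synthesis (chromosome 12, 56213990 to 56216616, 134 tags, 6.01-fold). IFT20, which encodes a protein of intraflagellar transport, had 517 tags at 3.59-fold in such a peak, and it reached 507 bases into the gene. The peak at PLAC8 had 101 tags and 14.31-fold enrichment, with a deposited false discovery rate of 100%. Among peaks that lay wholly past the end, that of MIA3, which serves the export of large cargo from the endoplasmic reticulum, was the nearest, 22 bases away (22 tags, 6.96-fold). SH2D6 followed at 32 bases (22 tags, 3.91-fold). NECTIN3, a cell adhesion gene, had a 16.56-fold peak of 13 tags 94 bases past its end, and HPGDS, a prostaglandin D synthase, a 16.56-fold peak of 9 tags 114 bases past its end. The HPGDS peak had the highest fold that its tag count allowed, as described further on. DYNLL2, a dynein light chain, had 27 tags and 11.56-fold at 139 bases. Further peaks within 226 bases were at ZNF460, KLHL10, PMPCB, MARCKSL1 and MAP1LC3A, with 10 to 56 tags and 3.95-fold to 8.52-fold enrichment.

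For 21 of the 169 genes with a downstream peak within 5 kb, an exon peak also lay in the last 10% of the gene. Over all genes with a peak, 867 of 5186 (16.7%) had such an exon peak, so the share near downstream peaks was no higher. The following 4 were chosen after their values were seen. ELF4, an ETS transcription factor, had an exon peak of 148 tags (8.35-fold) on the X chromosome, from 129198653 to 129201566. Its downstream peak (129197938 to 129198644, 22 tags, 14.02-fold) lay directly next to that exon peak, on the side past the gene. TUBGCP4, a subunit of the γ-tubulin ring complex, had 78 tags in the exon peak and 70 in the downstream peak, at 2.95-fold and 5.33-fold. NEU3, a sialidase, had 29 tags and 31 tags, at 8.5-fold and 8.42-fold. REL, an NF-κB subunit, had 16 tags at 7.83-fold in the exon peak nearest its end and 9 tags at 16.56-fold past the end. Further exon peaks of REL had 14 tags at 18.4-fold and 8 tags at 7.91-fold. The REL peak past the end had the highest fold that its tag count allowed, as described for the whole set further on, and the folds inside and past these genes were not ranked, because the tag counts differed.

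Most genes in front of a downstream peak had no peak on their own transcript. Leaving aside the downstream peaks themselves, 130 of the 494 genes (26.3%, 22.6 to 30.4%) had a peak of any class that overlapped a listed transcript, and 43 (8.70%, 6.53 to 11.5%) had an exon peak in the last 10% of the gene. Genes with an intergenic peak far upstream gave shares whose intervals overlapped these, 139 of 489 (28.4%, 24.6 to 32.6%) and 49 of 489 (10.02%, 7.66 to 13.0%). Over all genes with a peak the shares were 69.4% and 16.7%. These shares are partly fixed by the choice of genes, since each of the 494 entered through a peak beyond its annotated end. The lncRNA table also listed 64 of the 671 peaks (9.54%), in each case for a noncoding transcript of the same gene and as intergenic. It listed 1074 of all 8479 mRNA peaks (12.7%) and 46 of the 621 far upstream peaks (7.41%).

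The second question was which genes lie next to these peaks. The next protein-coding gene past the end was the one with the smallest gap in RefSeq coordinates on GRCh38.p14. Those coordinates were not set against the hg19 positions of the peaks. Where the direction was known, the next gene lay on the opposite strand for 304 of 390 genes with a downstream peak (77.9%, 73.6 to 81.8%). This order is called tail to tail here. Such genes end towards each other, unless the neighbour holds the whole gene. That was not checked for neighbours that span the end, and these are counted too. Over all genes with a peak the tail-to-tail share was 2380 of 4370 (54.5%, 52.98 to 55.9%). For genes with an intergenic peak far upstream it was 224 of 411 (54.5%, 49.7 to 59.3%), and for genes with an exon peak in the last 10% it was 395 of 702 (56.3%, 52.6 to 59.9%). The interval of the downstream set did not overlap those of the other sets. No test was run, since genes are not replicates of the precipitation. A same-direction neighbour leaves less room for a member, because the 20 kb before its start belong to the upstream class.

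**Figure D2:**
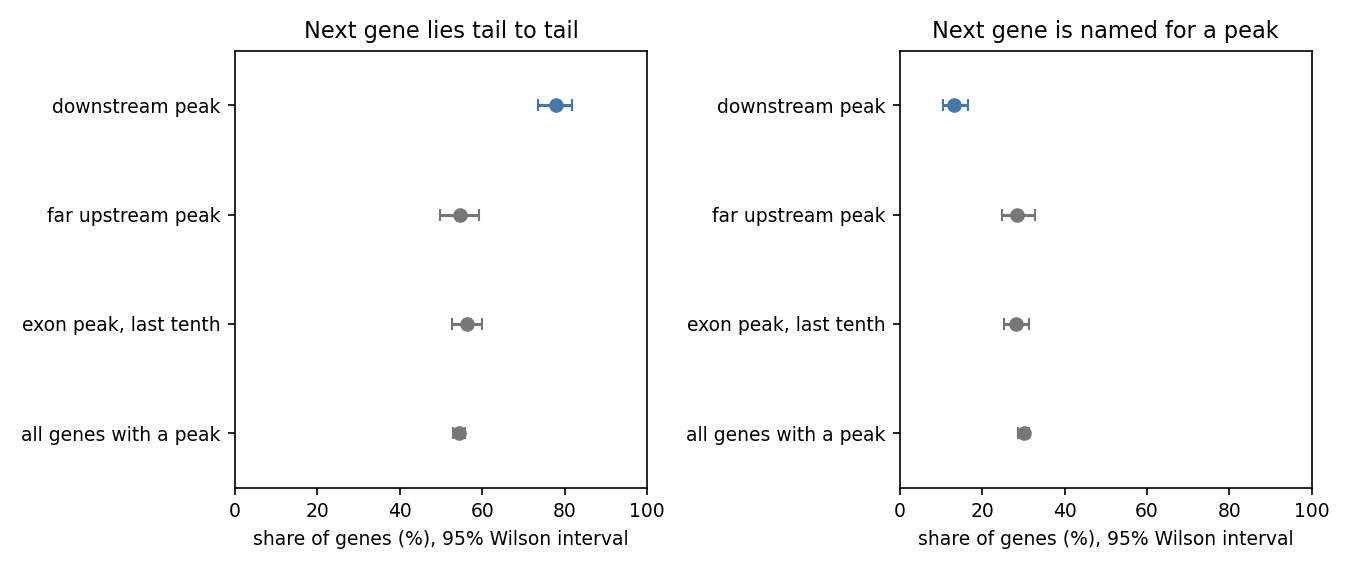
Left, share of genes whose next protein-coding gene past the end lies on the opposite strand (tail to tail), neighbours that span the end included. Right, share whose next gene was itself named for a peak in the mRNA list. Points are shares in % and bars are 95% Wilson intervals, for genes with a downstream peak, genes with an intergenic peak far upstream, genes with an exon peak in the last 10%, and all genes with a peak. Genes with a downstream peak stand at 77.9% on the left and at 13.2% on the right, outside the intervals of the other sets. Both shares depend in part on how peaks were named and classed.

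The next gene was itself named for a peak in the mRNA list for 65 of 492 genes with a downstream peak (13.2%, 10.5 to 16.5%). The share was 28.5% for genes with a peak far upstream, 28.2% for genes with an exon peak in the last 10% and 30.02% over all genes. The share behind downstream peaks is partly fixed by the naming. A peak on a listed neighbour's transcript, or nearer to its start, could not be a member. The neighbour spanned the end of the gene in 105 of the 492 (21.3%, 17.95 to 25.2%), against 14.97% of all genes. Behind the 52 genes with a downstream peak of at least 100 tags, only 2 neighbours (3.85%, 1.06 to 12.98%) were named for a peak, and 37 of 44 with known direction (84.1%, 70.6 to 92.1%) lay tail to tail. Behind the genes with a member of at least 2000 bases, 29 of 32 (90.6%, 75.8 to 96.8%) did. Behind those with a member of fewer than 10 tags, 141 of 181 (77.9%, 71.3 to 83.3%) did. Each of these tail-to-tail intervals held the 77.9% of the whole downstream set. Past 100 kb the tail-to-tail share was 12 of 24 (50%, 31.4 to 68.6%), with an interval that held the share of all genes. The tables list a gene only through a peak, so a neighbour missing from the authors' transcript list could not have been named for one, and how many were missing was not tested. Whether a peak lies inside such a neighbour was not tested either, since neighbours named for no peak have no hg19 position in these tables.

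The peaks with the most tags gave examples. GADD45A, a growth arrest gene induced by DNA damage, was named for a peak of 648 tags, 4171 bases long and 6.35-fold enriched, that began 13138 bases past its end (chromosome 1, 68167159 to 68171329). The next gene there is GNG12, which encodes a G protein γ subunit, lies tail to tail with GADD45A and was named for no peak. SDS, a serine dehydratase, had 596 tags at 5.09-fold over 3129 bases, 878 bases past its end, with PLBD2 tail to tail and named for no peak. EID3, a short gene whose product belongs to the SMC5/6 complex, had 627 tags at 3.55-fold in a peak 42799 bases past its end. Its end is spanned by TXNRD1, the cytosolic thioredoxin reductase, which runs in the same direction and was named for no peak. The false discovery rate deposited for the peaks of GADD45A and SDS was 100%, and it was 88.04% for that of EID3.

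The other peaks with the most tags were shorter. C17orf112 had the most tags, 2695 in 929 bases at 7.34-fold, 117939 bases past its end (chromosome 17, 51182951 to 51183879). GCNT1, an O-glycan branching enzyme, followed with 2266 tags in 545 bases at 2.94-fold, 64164 bases past its end. LGSN, a lens protein, had 820 tags at 7.30-fold, MSRB2, a methionine sulfoxide reductase, had 805 tags at 3.42-fold, and GHRH, the growth hormone-releasing hormone, had 626 tags at 3.07-fold in 499 bases. ANP32C, an intronless member of its family, had 537 tags at 2.74-fold at a distance of 263666 bases. Of these 6 genes, only LGSN also had a peak on its own transcript. None of their next genes was named for a peak.

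The longest peaks were several kb long. That at CCDC182 covered 5099 bases with 206 tags at 4.64-fold, 59806 bases past its end, and its tail-to-tail neighbour MSI2 had a peak of its own. CELF3, which encodes an RNA-binding protein of mainly neural tissues, was named for a peak of 5055 bases with 220 tags at 10.18-fold, 1166 bases past its end (chromosome 1, 151666313 to 151671367), with SNX27, a sorting nexin gene, next to it tail to tail. CYB561, SMYD2 and HELLS had peaks of 4934, 4888 and 4277 bases. CELF3 and PLAC8 were the 2 genes with a downstream peak of at least 100 tags and a fold of at least 10. The deposited false discovery rate was 100% for these peaks of CELF3 and PLAC8 and 90.88% for that of HELLS. Over all 671 peaks the median length was 559 bases, and 41 peaks (6.11%) were 2000 bases or longer.

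Peaks also came in runs behind single genes. While 376 genes had 1 downstream peak, 118 genes had 2 or more, which together held 295 of the 671 peaks, and 14 genes had 4 or more. Several peaks per gene were not particular to this part. The 671 downstream peaks were named for 494 genes, the 621 far upstream peaks for 489 genes and all 8479 mRNA peaks for 5186 genes. Runs in those other sets were not counted. The largest runs had 6 peaks each, among them those at AP3M1, SMYD2 and FAM8A1. AP3M1, a subunit of the AP-3 adaptor, had 391 tags at 3.44-fold in a peak at its end, and its other 5 peaks lay up to 30842 bases away with 7 to 18 tags. VCL, the gene of the focal adhesion protein vinculin, spans the end of AP3M1 tail to tail and was named for no peak. SMYD2, a lysine methyltransferase, had 47, 55 and 186 tags in 3 peaks between 11643 and 15992 bases past its end, then 12, 19 and 125 tags farther out, at 3.24-fold to 8.18-fold. The gene behind it is PTPN14, a tyrosine phosphatase that lies tail to tail and was named for no peak. FAM8A1 had peaks of 13 to 132 tags from 3340 to 37387 bases, in front of NUP153, a nuclear pore gene. NUP153 lies tail to tail with FAM8A1 and was named for no peak.

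**Figure D3:**
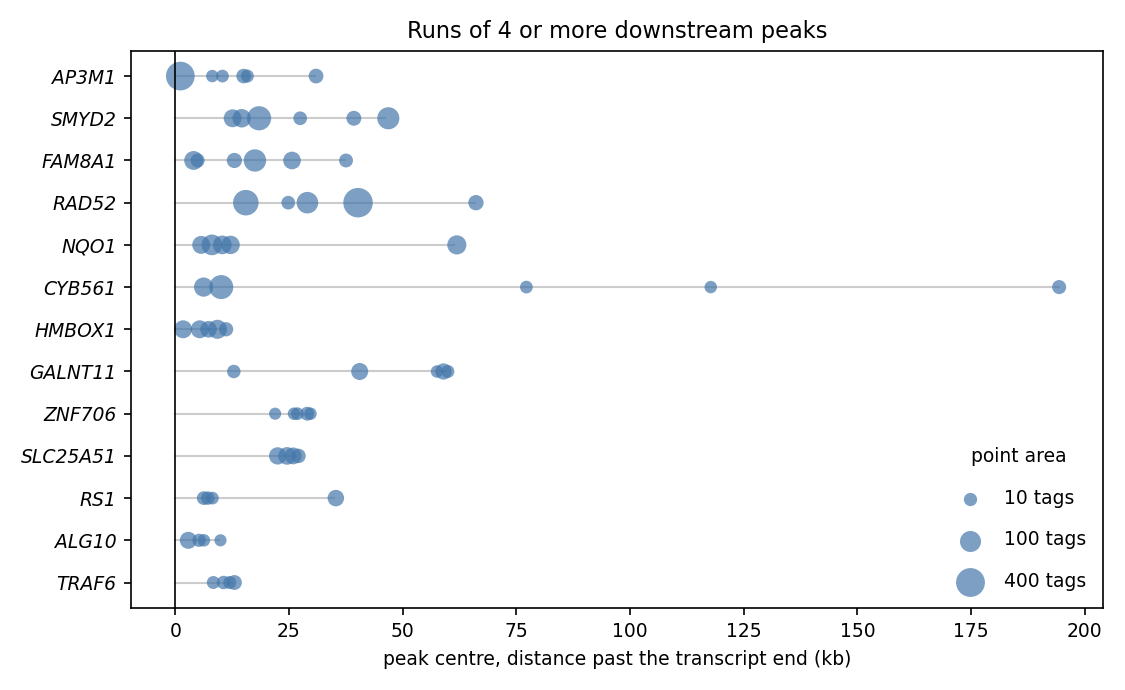
Peaks behind 13 of the 14 genes with 4 or more downstream peaks. The x axis is the distance of the peak centre past the listed transcript end in kb, each row is a gene, and the point area grows with the number of tags. Most runs end within 70 kb, and that of CYB561 reaches past 190 kb.

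Runs of 5 peaks lay behind RAD52, NQO1, CYB561, HMBOX1, GALNT11 and ZNF706. RAD52, a recombination gene, had 236, 12, 112, 438 and 22 tags from near to far, with folds between 4 and 8.49, which made 820 tags in all and the most of any run. The next gene is WNK1, a kinase that controls ion transport, which lies tail to tail and was named for no peak. NQO1, a quinone reductase induced by oxidative stress, had 4 peaks of 48 to 93 tags packed between 4874 and 11303 bases past its end, and 1 more of 65 tags at 61370 bases. Their folds lay in a narrow range, from 4.77 to 5.97. CYB561, a transmembrane electron carrier, had its 2 large peaks at 4952 and 7651 bases (66 and 181 tags), while 3 peaks of 7 to 14 tags were spread up to 194211 bases away. TANC2 lies tail to tail behind it and was named for no peak. HMBOX1, a homeobox gene, had 5 peaks of 15 to 64 tags within 10844 bases, the nearest at 14.91-fold. GALNT11, which starts O-linked glycosylation, had peaks of 7 to 37 tags. ZNF706 differed from the rest, with 6 to 13 tags per peak, at 9.20-fold to 12.18-fold, between 21775 and 29537 bases past its end. Its next gene, YWHAZ, runs in the same direction and had a peak of its own. Genes of chromosome 8, ZNF706 among them, were left out of the direction counts. Of the 9 other genes with 4 or more peaks and a known direction, 8 lay tail to tail with the next gene.

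The third question was how strong the enrichment was. The fold enrichment is the authors' ratio of PTBP1 RIP over the IgG background. Its median was 7.37 (quartiles 5.56 and 10.42) in the downstream peaks, 7.08 over all mRNA peaks, 7.83 in the intergenic peaks far upstream and 6 in the 986 exon peaks of the last 10% of genes. The median number of tags was 12, 13, 10 and 23.5 in these sets. A fold of at least 10 was reached by 175 downstream peaks (26.1%, 22.9 to 29.5%), against 24.0% of all mRNA peaks, so the share was near the background. It was 31.6% (28.03 to 35.3%) far upstream and 14.5% (12.4 to 16.8%) in the last exon peaks. At least 20 tags were held by 227 downstream peaks (33.8%, 30.4 to 37.5%), against 36.6% of all mRNA peaks and 54.97% of the last exon peaks. In tags and fold the downstream peaks thus resembled the whole list more than the exon peaks at gene ends.

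The fold was bounded by the number of tags. Over the mRNA list the highest ratio of fold to tags was 1.8409, and 55 downstream peaks (8.20%, 6.35 to 10.5%) lay on this bound, within a fold of 0.02, against 7.75% of all mRNA peaks. For such peaks the fold is the tag count times a constant. They made up 55 of the 175 peaks with a fold of at least 10, and 49 of them held 6 to 9 tags. The median fold was 9.2 for the 270 downstream peaks with 6 to 9 tags, 7.485 for 174 with 10 to 19 tags, 5.845 for 172 with 20 to 99 tags and 4.53 for the 55 with 100 or more. An order of peaks by fold is therefore in part an order by tag count, and the peaks named next for their fold are a description of the list. The deposited false discovery rate was 43.07% or higher for every downstream peak, below 50% for 595 of them (88.7%) and 100% for 18 (2.68%). Over all mRNA peaks the lowest rate was 43.06%, and 2.37% of the peaks had a rate of 100%. The median rate was 44.87% in the downstream peaks and 44.97% over all mRNA peaks. High rates were thus a feature of the whole list and not of this part. The share below 50% was not counted over all mRNA peaks.

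**Figure D4:**
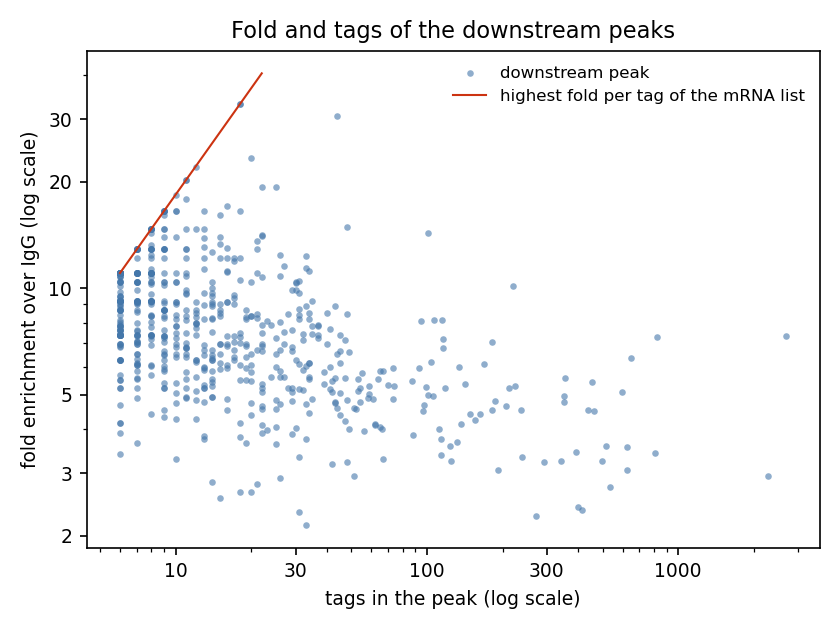
Fold enrichment over IgG against tags in the peak for the 671 downstream peaks, each a point, both axes on a log scale. The line is the highest ratio of fold to tags in the mRNA list, 1.8409. The 55 peaks on this bound hold few tags, and the median fold falls from 9.2 at 6 to 9 tags to 4.53 at 100 or more.

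The highest folds were 33.13 at DEFB127, a β-defensin gene (13954 bases past its end), and at RPL22L1, a paralog of a ribosomal protein gene (42562 bases), with 18 tags each. These peaks and those of RNASE10, EID3, FGFR3 and ALG13 given below lay on the bound, so that their folds restate their tag counts. KIAA1257 had 30.6-fold with 44 tags, well under it, 9736 bases past its end (chromosome 3, 128679331 to 128680045), and its neighbour ACAD9, a mitochondrial acyl-CoA dehydrogenase, spans the end of the gene tail to tail and had a peak of its own. LECT1, which encodes chondromodulin, had 23.31-fold with 20 tags and RNASE10 had 22.09-fold with 12 tags. EID3 and FGFR3, a fibroblast growth factor receptor, had 20.25-fold peaks of 11 tags. YTHDF3, a reader of N6-methyladenosine in RNA, had 19.29-fold with 25 tags at a distance of 53835 bases. ALG13 had 18.4-fold with 10 tags. Of these 9 genes, only YTHDF3 had a peak on its transcript. Their deposited false discovery rates ran from 57.77% to 100%.

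The last question was which gene groups stood in front of the peaks. Among genes with any mRNA peak, 9.53% had a downstream one. TGFβ signaling genes had them at 3 of 18, with 1 peak each. SMAD2, a mediator of TGFβ signals, had 8 tags at 11.04-fold 7400 bases past its end, beside 3 exon peaks of 26 to 55 tags and an intron peak of 1074 tags on its transcript. ID3, a TGFβ-responsive inhibitor of bHLH factors, had 31 tags at 8.20-fold in a peak of 1649 bases, 6325 bases past its end (chromosome 1, 23876447 to 23878095). ID2, its paralog, had 7 tags at 5.54-fold in its downstream peak, 48974 bases past its end. The next gene behind ID2 is KIDINS220, a scaffold of neurotrophin signaling, which lies tail to tail and was named for no peak. Neither ID3 nor ID2 had a peak on its transcript. TGFB1 and TGFB2 had no downstream intergenic peak.

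Developmental transcription factors had downstream peaks at 5 of 28 genes, and 2 of the 5 were ID2 and ID3. NR2F2, an orphan nuclear receptor, had 21 tags at 12.92-fold 100836 bases past its end, TBX15, a T-box factor, had 6 tags at 11.04-fold at 267256 bases, and POU3F2 had 17 tags at 6.38-fold at 32470 bases. The TBX15 peak lay on the bound of fold to tags. Known targets of PTBP1 had downstream peaks at 3 of 16 genes. VEGFA, the vascular growth factor, had 8 tags at 14.72-fold 12170 bases past its end, on the bound given above. FLNA, a filamin, had 6 tags at 7.36-fold, 7023 bases past its end. Among EMT and junction genes, 1 of 13 had a downstream peak, the transcription factor ZEB1 (6 tags, 9.20-fold, 73310 bases). Splicing and hnRNP genes had 1 in 27, HNRNPD, with 34 tags at 5.53-fold and a distance of 223504 bases.

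No downstream peak was named for the 24 silencing and decay genes with a peak (which allows up to 12.5%), the 16 cell cycle genes (up to 18.75%), the 15 matrix genes (up to 20%) or the 9 glycolysis genes (up to 33.3%). Each of these upper limits is 3 divided by the number of genes and is not a Wilson limit. With so few genes a share near 9.53% was not detectable. Of 19 gastric epithelial markers, 2 had any mRNA peak and none a downstream one, and a list of peaks does not give expression, so the cell type could not be checked further. The markers of other cells had 1 member of 5 with a peak and none downstream. Gene families had shares near that of the whole list, with 14 of 122 ZNF genes (11.5%), 13 of 111 SLC genes (11.7%) and 1 of 7 KRT genes. Their highest folds were 14.72 at SLC35A1, a nucleotide sugar transporter (8 tags), 12.18 at ZNF706 and 11.04 at SLC41A2, SLC6A15, ZNF557 and ZNF501 (6 to 8 tags). Those of SLC35A1, SLC41A2, SLC6A15 and ZNF501 lay on the bound given above, so that they restate the tag counts. KRT80, a keratin, had 2 peaks of 8 and 32 tags, at 6.02-fold and 5.87-fold.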

How the data were processed

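The deposited tables were made by the authors from 1 PTBP1 RIP library and 1 IgG RIP library. Bowtie2 (2.2.4), cutadapt (1.9.3) and hg19 stand in the submitters' processing notes. The program that called the peaks was not given in the sources used here. Per peak, the deposited count of tags does not name the library counted. Fold enrichment is the authors' ratio over IgG. The deposited p score is 10 times the negative log10 of the p-value, and the deposited false discovery rate is a percent. All mRNA peaks had at least 6 tags and a p score of at least 30. Without totals of either library, the depth is unknown.

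The distance past the end was computed from the listed hg19 transcript end to the near edge of the peak, with code tested on simulated data. Order and direction of neighbouring genes came from RefSeq tables of GRCh38.p14, matched by accession or symbol, or from the strand in the peak tables. A neighbour was found for 492 of 494 genes. Genes of chromosome 8 and neighbours of unknown strand were left out of direction counts, which left 390 of 467 genes (83.5%). With 1 library per group no test was run, and shares have Wilson intervals. The upper limits for gene lists without a downstream peak are not Wilson limits.

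The members and gene lists were chosen with earlier results of these data known. Named genes were the 10 peaks highest in fold, in tags and in nearness to the end, the 5 farthest and 5 longest, the 10 genes with the most downstream peaks, up to 3 per gene list, and ID2, TGFB1 and TGFB2. ELF4, TUBGCP4, NEU3, REL, the peaks that reached into a transcript and the neighbours were named after their values were seen. The farthest peaks, at FSCB (1203428 bases), OTOL1, SLC6A15, CCSER1 and C8orf4, had 6 to 67 tags. A few members are counted but not reported here by name. The promoter tables hold no intergenic peak and were not used. Alternatives were fold, tag and false discovery rate thresholds, other distances, merged peaks and values per gene. Computation was done in Python (3.11.15) with scipy (1.17.1), numpy (2.4.6), pandas (2.3.3) and, for plots, matplotlib (3.10.9).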

Additional observations from a re-analysis of the deposited data

How the results depend on the processing

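The number of downstream peaks fell to 175 with a fold of at least 10, to 227 with at least 20 tags and to 358 with a false discovery rate below the median of the mRNA list, because each keeps fewer peaks. It was between 607 and 670 with a fold of at least 4, merged peaks, peaks of the lncRNA table left out or the peak on another listed transcript left out. The median distance past the end stayed between 9510 and 11413 bases under all 5 alternatives tried. The share within 5 kb was 38.3% with at least 20 tags and 25.7% with a fold of at least 10. The median fold was 5.53 with at least 20 tags and 8.045 for the best peak per gene, and the median tags were 8 with a fold of at least 10, 16 when summed per gene and 23.0 per 1000 bases of peak. The share with a fold of at least 10 was 10.1% with at least 20 tags and 32.2% for the best peak per gene, and 44.6% reached a fold of 8. The share of genes with a peak on the transcript as well was 16.8% for exon peaks only, 32.5% for genes with a downstream peak within 5 kb and 12.97% with at least 20 tags asked of both peaks. The tail-to-tail share, whose alternatives were chosen after seeing the data, was 72.1% with a fold of at least 10, 78.1% with at least 20 tags and 81.07% within 20 kb of the end. For the other shifts the cause was not tested. No paired analysis was possible because there was 1 library per group, and no library could be left out. Tag counts limit the folds, since 270 of the 671 peaks held 6 to 9 tags.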
